A study of Mus musculus with 82 samples.

Results

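The 35 genes described here, of the ribosome and of the mitochondrial energy machinery, were followed across liver RNA of BXD mice. They are all genes whose platform symbol begins with Rpl or Rps and a digit (not Rps6k), Mrpl, Mrps, Nduf, Uqcr, Atp5, Sdh and a letter, or Cox and a digit, together with Atpif1 and Mpc1. Each of the 35 was measured by 1 probe, out of 21936 probes on the array, of which 3290 carry a single platform symbol. The cytosolic ribosome gave 13 genes: Rpl6, Rpl8, Rpl19, Rpl26, Rpl27, Rpl36a, Rpl41, Rps2, Rps3, Rps4x, Rps7, Rps15 and Rps26. The mitochondrial side gave 22. These were 3 mitochondrial ribosomal proteins, 5 genes named for complex I, 6 for complex IV (cytochrome c oxidase), 6 for complex V (ATP synthase), Atpif1 and Mpc1. No probe with a single symbol beginning with Uqcr or Sdh was present, so complexes II and III are not described.

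BXD strains are recombinant inbred mice that carry mosaics of the C57BL/6J (B6) and DBA/2J (D2) genomes. Adult liver of 17 BXD strains was set against a single RNA mix made from B6 embryos at day 17.5 on 2-colour arrays, 32 for males and 40 for females. Another 2 arrays compared B6 male liver with that mix, 6 compared B6 with D2 liver directly in both sexes, and 2 compared RNA of both parents labelled as enriched, a term the labels do not explain. The series text gives ages of 10 to 20 weeks and 3 unfasted males per strain for 18 BXDs, whereas the array labels hold both sexes. Of the 17 strains, 13 had arrays in both dye orientations, while BXD8, BXD9, BXD14 and BXD27 had forward arrays only. The labels do not say whether an RNA came from 1 mouse or a pool, so a spread over strains or arrays holds both biological and technical parts.

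All values are log2 ratios, and every fold rests on reading the deposited values as log10 ratios of channel 2 over channel 1. That direction is likely rather than stated: adult hepatocyte genes (10 measured) had a higher median than embryonic genes (11 measured) on 74 of 74 arrays. Consecutively deposited arrays were grouped here into sets A to I. The labels name no such sets, their limits were drawn for this description, and set I was deposited before sets G and H. What the arrays of a set share is not stated. In a mixed tissue, fewer cells of a type and less RNA per cell cannot be told apart.

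Cytosolic ribosomal proteins, with ribosomal RNA, build the small (Rps) and large (Rpl) subunits that translate nuclear-encoded messages, and growing tissues make many ribosomes. Mitochondrial ribosomal proteins serve a separate ribosome that translates the few messages of mitochondrial DNA. Complexes I and IV pump protons as electrons pass to oxygen, complex V uses the gradient to make ATP, Atpif1 stops complex V from running in reverse, and Mpc1 is part of the carrier that brings pyruvate into mitochondria. Some subunits of complex IV exist in paired isoforms, of which Cox6a2 and Cox8b are those of heart and skeletal muscle. Ribosomal protein genes have many near-identical pseudogenes, and a probe may not separate them from the parent gene.

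Short promoter stretches are shown because motifs of the factors known to act on housekeeping and mitochondrial genes were spread unequally over the members. RefSeq promoter entries (GRCm38.p6, 250 bases before to 50 after the annotated start) were matched by symbol for 30 of the 35 genes; Atp5a1, Cox4i1, Cox6a2, Ndufa2 and Rpl8 were not matched. Windows of 50 bases before the start are written 5′ to 3′ on the strand of the gene, with the matched letters or their reverse complement in capitals.
Rps7 (ETS core, chr12:28635954-28636003, minus strand): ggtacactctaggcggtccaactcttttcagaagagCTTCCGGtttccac
Rps2 (ETS core, chr17:24719914-24719963, plus strand): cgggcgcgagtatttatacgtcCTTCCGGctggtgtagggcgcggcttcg
Rpl41 (ETS core, chr10:128549197-128549246, minus strand): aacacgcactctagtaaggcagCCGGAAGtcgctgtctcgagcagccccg
Ndufa6 (part of the NRF1 motif, chr15:82354346-82354395, minus strand): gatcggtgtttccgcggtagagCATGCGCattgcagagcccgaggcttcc
Cox5b (part of the NRF1 motif, chr1:36691414-36691463, plus strand): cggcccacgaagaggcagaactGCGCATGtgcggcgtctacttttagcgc
Atp5k (part of the NRF1 motif, chr5:108434419-108434468, minus strand): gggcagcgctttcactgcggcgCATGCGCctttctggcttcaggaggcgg
Atp5j (YY1 core, chr16:84835036-84835085, minus strand): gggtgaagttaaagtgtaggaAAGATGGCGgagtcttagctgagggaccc

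The ETS core CCGGAAG was present, on either strand, in 7 of 12 cytosolic ribosomal entries (58.3%) and in 5 of 18 mitochondrial ones (27.8%), against 9.93% of 27025 genes with an entry. The string GCGCATG, part of the NRF1 motif, was present in 1 of 12 and 5 of 18, against 4.41% of all genes, and the YY1 core AAGATGGCG in 0 of 12 and 3 of 18, against 1.64%. The Myc E-box CACGTG was found in 1 of 12 and 2 of 18 (8.09% of all genes), and the E-box CAGCTG, one of those bound by myogenic factors, in 1 of 12 and 3 of 18 (18.3% of all genes). Cox8b was among the last. The searched strings can overlap at their ends, as CCGGAAG and AAGATGGCG do in the letters AAG. A match is a description of the letters and not evidence of binding.

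Against the embryo mix, cytosolic ribosomal transcripts were mostly lower in adult liver and respiratory chain transcripts mostly higher. With an adjusted p of at most 0.05 and an absolute log2 ratio of at least 1 (limma over 13 strain means, Benjamini-Hochberg over 21915 features), 4 of 13 cytosolic ribosomal genes were lower and 0 higher, where 9.22% of all features were lower, 4.72% higher and 13.9% called in all. By adjusted p alone, 11 of 13 were lower and 1 higher, where 35.6% of all features were lower and 48.4% higher (84% in all). These p-values rest on the spread of liver strain means and do not cover variation between embryo RNAs, of which there was a single mix. The median over the 13 genes was -0.82, beside 0.07 over all features. Of the 22 mitochondrial genes, 3 were higher and 3 lower with the size threshold, and 16 higher and 4 lower by adjusted p alone, with a median of 0.38. The 15 chain genes other than the muscle isoforms had a median of 0.51, and 13 of them were higher by adjusted p alone and 0 lower.

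Rpl8, a large-subunit protein near the peptidyl transferase centre, ran from -1.69 in BXD12 over a median of -1.34 to -1.04 in BXD32, a mean of -1.38 ± 0.22 (SD, n = 13 strains) or 2.59-fold lower in liver. The small-subunit protein Rps26 lay between -1.67 and -1.11 (median -1.24), a mean of -1.32 ± 0.20. Rps4x, the small-subunit protein encoded on the X chromosome, lay between -1.65 and -0.89 (median -1.26; mean -1.28 ± 0.21), and Rps7 between -1.74 and -0.86 (median -1.21; mean -1.24 ± 0.24). No strain mean of these 4 genes reached 0, and their adjusted p-values ran from 1.15e-12 for Rps26 to 2.6e-11 for Rps7. For Rps26, Rps4x and Rps7 the highest strain was BXD28. Rps7 and Rps4x were lowest in BXD21.

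The ribosomal genes did not move as one block. Rpl26, of the large subunit, was the only one higher in liver by adjusted p, at 0.39 ± 0.18 with all 13 strains above 0 (0.06 in BXD16 to 0.72 in BXD28). Rps3, a small-subunit protein at the entry of the message, ran from -0.59 in BXD21 to 0.67 in BXD28 and did not pass the test (0.07 ± 0.32, adjusted p = 0.452). The other 7 cytosolic genes had means from -0.94 (Rpl19) to -0.51 (Rps15), each below 0 in all 13 strains.

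**Figure D1:**
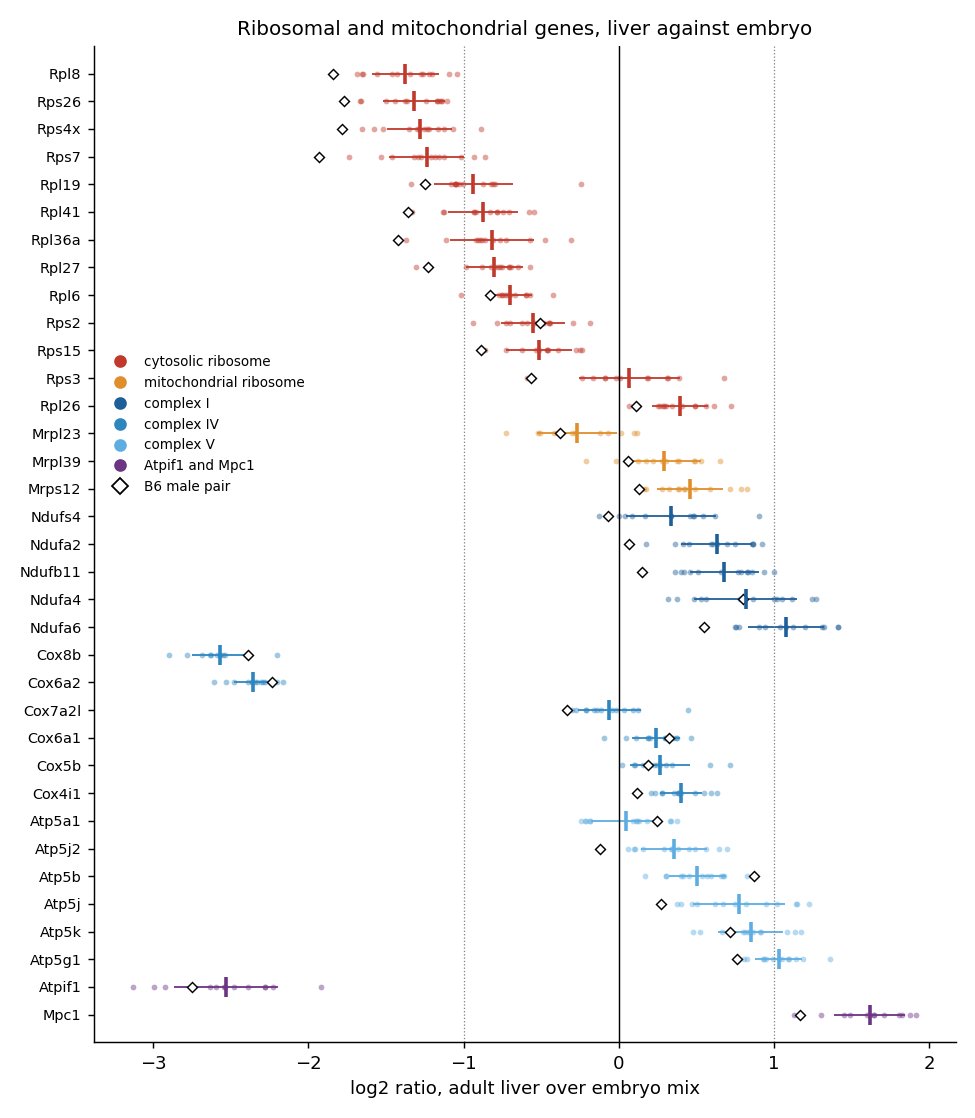
Log2 ratio of adult liver over the embryo mix for 35 genes, grouped by complex. Small dots are the means of 13 BXD strains over both sexes, the upright tick with its bar is their mean ± SD, and diamonds are the mean of 2 arrays of B6 males; dotted lines mark a log2 ratio of 1 in either direction. Most cytosolic ribosomal genes lie left of 0, most chain genes right of it, and Cox8b, Cox6a2 and Atpif1 stand apart at the left between -2.57 and -2.36.

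On the mitochondrial side, Mpc1 had the highest ratio, from 1.13 in BXD21 over a median of 1.64 to 1.92 in BXD19, a mean of 1.62 ± 0.23 or 3.06-fold higher in liver (adjusted p = 4.13e-13). Ndufa6, an accessory subunit of complex I, was at 1.08 ± 0.24 with strains from 0.75 to 1.41. Atp5g1, one of the genes for the c ring of ATP synthase, was at 1.03 ± 0.15 with strains from 0.80 to 1.36. Both lay close to the size threshold of 1, and in males alone they were at 0.58 and 0.82. All 5 genes named for complex I were higher by adjusted p, down to Ndufs4 at 0.33 ± 0.29, an accessory subunit whose strains ran from -0.13 to 0.90. Ndufa4 is counted here by its symbol, although its protein is now placed with complex IV.

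Within complex V the range was wide. Atp5g1 was at the top and Atp5a1, the alpha subunit of the catalytic head, at the bottom with 0.05 ± 0.23, 8 of 13 strains above 0 and an adjusted p of 0.447. Its partner Atp5b, the beta subunit, was at 0.51 ± 0.18 with all 13 strains above 0. The mitochondrial ribosome split too: Mrps12 of the small subunit was higher (0.46 ± 0.22), Mrpl39 of the large subunit was higher (0.29 ± 0.24), and Mrpl23, also of the large subunit, was lower (-0.27 ± 0.26, adjusted p = 0.00146, 10 of 13 strains below 0).

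The muscle isoforms of complex IV were lower in liver. Cox8b lay between -2.90 in BXD11 and -2.20 in BXD19 (median -2.57), 5.94-fold lower in liver (-2.57 ± 0.18). Cox6a2 had the smallest spread of all members, from -2.61 to -2.16 (median -2.34), and was 5.12-fold lower (-2.36 ± 0.12, adjusted p = 3.84e-18). The isoform of the same subunit found in most tissues, Cox6a1, was instead at 0.24 ± 0.15, and Cox4i1, the widely expressed form of subunit IV, at 0.40 ± 0.14 with all 13 strains above 0. Cox5b was at 0.27 ± 0.19, and Cox7a2l did not differ beyond its error (-0.06 ± 0.20, adjusted p = 0.295). The fixed list of skeletal and heart muscle markers was lower in liver for 7 of 7 genes, from -5.14 for Tnnc2 to -1.19 for Tnnc1, and its part in the values of Cox8b and Cox6a2 was not tested. Brown fat markers, of which 4 were measured, gave 2 lower (Cidea -3.52, Ucp1 -1.86) and 1 higher (Elovl3 1.70).

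Atpif1, the inhibitor of complex V, was lower in liver by an amount between those of Cox8b and Cox6a2. Of the enzyme it binds, 5 of 6 genes were instead higher by adjusted p. Its strains ran from -3.13 in BXD32 over a median of -2.54 to -1.92 in BXD28, a mean of -2.53 ± 0.34 or 5.79-fold lower (adjusted p = 1.39e-13). It also had the largest spread over strains of the 35 genes.

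Related gene lists gave the following counts with the same threshold. Ribosome assembly had 3 of 8 genes lower and 0 higher: the nucleolar proteins Npm1 (-1.73) and Ncl (-1.34) and the RNA polymerase I subunit Polr1a (-1.20). Cell division had 7 of 8 lower, with a median of -2.15. Among 8 translation factors and among 3 other cytosolic ribosomal genes none was called, with medians of -0.11 and -0.59. In the pyruvate and citric acid cycle list 2 of 7 were higher, pyruvate carboxylase Pcx (1.29) and malate dehydrogenase Mdh1 (1.22), and 0 lower. None of 8 genes for mitochondrial assembly and import was called, at a median of 0.51, none of 4 electron carriers (median -0.53) and none of 3 genes of mitochondrial gene expression (0.28). Of 8 regulators 1 was higher.

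B6 male liver had 1 forward and 1 swapped array and so no test. For the mitochondrial genes, the median difference from the mean of 13 male strains was 0.006. Single genes lay on both sides, such as Atp5b (0.87 against 0.59) and Mrps12 (0.13 against 0.37). In all, 0 of 22 lay outside the range of those strains, where 6.06% of all features lay below it and 8.86% above. Cytosolic ribosomal genes had a median difference of -0.23, and 2 of 13 (15.4%) lay below all 13 male strains, where 6.06% of all features did. Those were Rps7, at -2.14 and -1.73 on the 2 arrays against a lowest strain of -1.90, and Rpl27 of the large subunit, at -1.29 and -1.16 against -1.18. The arrays thus straddled the lowest strain in both genes. Both B6 arrays lie in set F, which holds no BXD male, so strain and set cannot be told apart in this comparison.

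Between the sexes, 23 of 35 genes were higher in female liver and none lower, at adjusted p of at most 0.05 (limma, 34 values of 17 strains, strain as a block), where 16.2% of all features were higher, 17.1% lower and 33.3% called in all. On the cytosolic side this was 7 of 13, with a median difference over the 13 of 0.27, and on the mitochondrial side 16 of 22, with a median of 0.41, beside 0.02 over all features. These counts depended on whether the set of arrays was a term. With replicate numbers kept apart (40 values), 7 and 16 genes were again called, at 36.6% of all features called. With the set as a term on these values, 10.2% of all features were higher and 11.3% lower in females (21.4% in all), but only 1 of 13 cytosolic and 4 of 22 mitochondrial genes were higher, and 1 mitochondrial gene was lower. The medians over the members were then -0.03 and 0.08. In the fits on 40 values, repeats of a strain and sex count as separate values. With the set as a term, 16 residual degrees of freedom remain. Sets A, E, F and I hold BXD arrays of 1 sex only, so sex and set cannot be fully told apart.

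Mpc1 had the largest difference in both fits. Its female values ran from 1.501 in BXD8 over a median of 1.88 to 2.86 in BXD28, and its male values from 0.02 in BXD27 over 1.06 to 1.49 in BXD15. Every female strain value lay above every male one, and the share of all features that separate so was not counted. The difference was 1.01 ± 0.56 (SD over 17 strains), 2.01-fold, with females higher in 17 of 17 strains (adjusted p = 3.75e-05), and 0.74 ± 0.16 (SE) with the set as a term (adjusted p = 0.00459). It was 1.01 in the 13 strains with both orientations. In the 4 strains with forward arrays only it was 0.99 and did not pass (adjusted p = 0.283), with 0.85 in BXD8, 0.46 in BXD9, 0.62 in BXD14 and 2.02 in BXD27.

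Atpif1 ran from -3.11 to -1.14 in females (median -2.30) and from -3.51 to -2.51 in males (median -3.15). The ranges overlapped, but 12 of 17 female values lay above every male value, and the female was higher within 17 of 17 strains. Neither count was made over all features. The difference was 0.87 ± 0.53 (adjusted p = 7.3e-05), and 0.44 ± 0.12 (SE) with the set as a term (adjusted p = 0.0145). With arrays scaled to the same spread it was 0.43 and did not pass (adjusted p = 0.167). In the 4 forward-only strains it was 0.33, against 1.03 in the other 13.

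The next mitochondrial differences were 0.72 ± 0.77 for Ndufa6, 0.59 ± 0.63 for Ndufa2 and 0.56 ± 0.57 for the X-linked Ndufb11, all accessory subunits of complex I, with females higher in 14 or 15 of 17 strains. Small subunits of ATP synthase stood beside them: Atp5j2 at 0.57 ± 0.57, Atp5k at 0.55 ± 0.63 and Atp5j at 0.52 ± 0.65. Mrpl39 differed by 0.49 ± 0.43 and Ndufa4 by 0.46 ± 0.73, a call lost on leaving out any of BXD2, BXD5, BXD12, BXD18, BXD19, BXD21, BXD27 or BXD28 (adjusted p = 0.0509 to 0.0753). None of these 8 genes passed with the set as a term, where Ndufa2 was at -0.04, Atp5k at -0.07 and Ndufa4 at -0.14, and Mrpl39 at 0.37 (adjusted p = 0.051).

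In the cytosolic ribosome the X-linked Rpl36a differed most (0.66 ± 0.68, females higher in 15 of 17 strains), followed by Rps3 (0.61 ± 0.67), Rps7 (0.43 ± 0.56), Rps15 (0.39 ± 0.27), Rpl19 (0.35 ± 0.50), Rps26 (0.31 ± 0.36) and Rpl6 (0.26 ± 0.32). The third X-linked member, Rps4x, was at 0.17 ± 0.43 and did not pass (adjusted p = 0.202). Rps15, a small-subunit protein, was the only cytosolic gene that passed with the set as a term, at 0.32 ± 0.10 (SE; adjusted p = 0.0292), but with arrays scaled to the same spread it was at 0.21 and did not pass (adjusted p = 0.175). With the set as a term Rps7 was at -0.02 and Rpl19 at -0.13.

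The other genes that passed with the set as a term were Mrps12 (0.37 ± 0.09 SE, adjusted p = 0.00935), Atp5g1 (0.34 ± 0.11, adjusted p = 0.0305) and, lower in females, Cox6a1 (-0.33 ± 0.11, adjusted p = 0.0401). Cox6a1 was at -0.17 without that term and did not pass there. The muscle isoforms Cox8b (0.14) and Cox6a2 (0.15) did not pass in either fit.

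**Figure D2:**
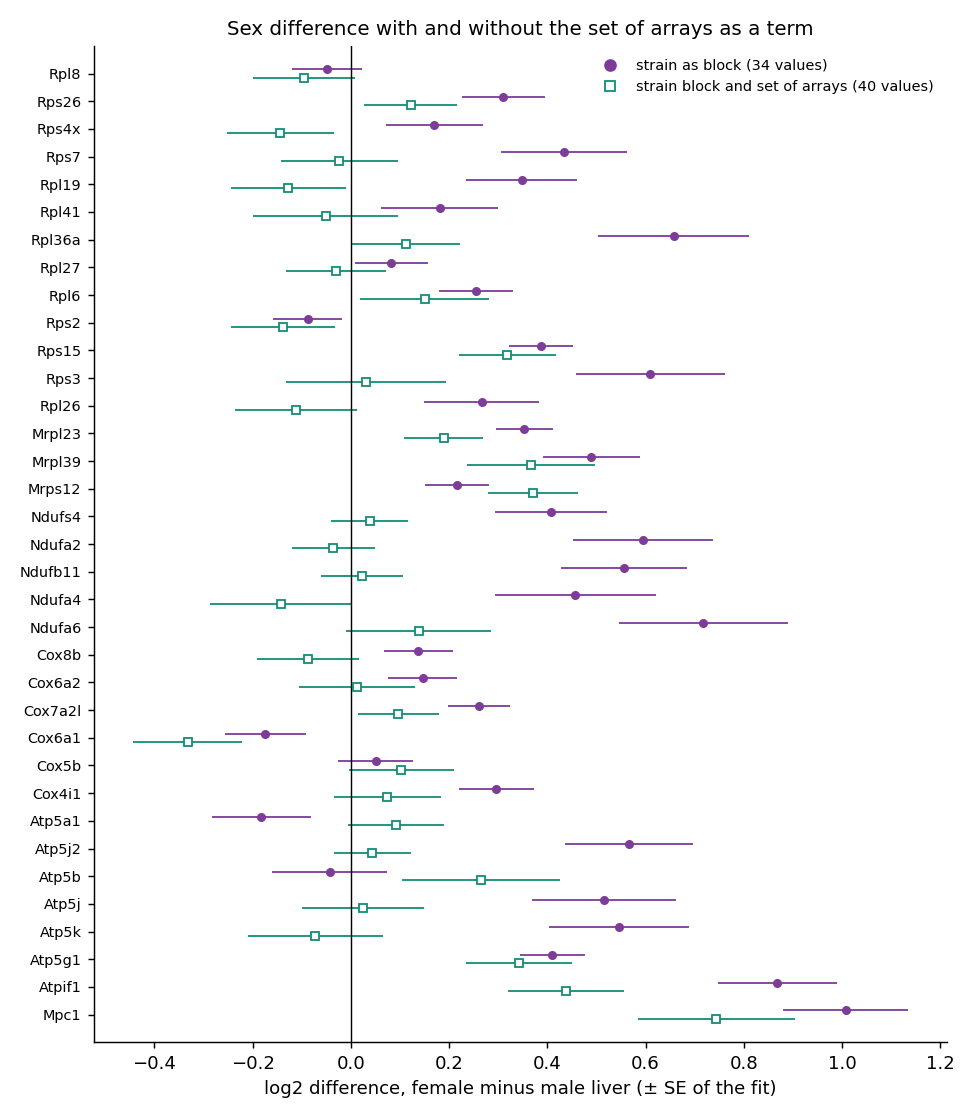
Female minus male log2 difference of 35 genes, with the SE of each fit as bars. Filled circles are the fit on 34 strain and sex values, open squares the fit on 40 values with the set of arrays as a term; most open squares lie nearer 0, while Mpc1 stays at 0.74 and Atpif1 at 0.44.

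Set E, which holds female arrays alone, carried the highest female class means. Its 6 female values, of BXD2, BXD5, BXD12, BXD18, BXD19 and BXD28, had a mean of -0.42 over cytosolic and 0.54 over mitochondrial genes. Females of the other sets were between -1.43 and -0.49 and between -0.14 and 0.44. Female minus male differences of the cytosolic mean ran from 0.51 to 0.73 in those 6 strains and from -0.28 to 0.38 in the other 11. For the mitochondrial mean they ran from 0.55 to 0.76 and from -0.04 to 0.41, so the strains of set E did not overlap with the rest in either class mean. How many of all features separate in this way was not counted. Single members did not all follow the class means: Atp5a1, at -0.50 in females of set E, was lower there than in females of any other set. Male means of the same strains did overlap, with medians of -1.03 and -0.95 (cytosolic) and -0.16 and -0.14 (mitochondrial).

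Without those 6 strains, a choice made after seeing the data, 1 cytosolic and 6 mitochondrial genes were higher in females, where 22.8% of all features were called in either direction. The difference was then, for Mpc1 0.73 (adjusted p = 0.00239), for Atpif1 0.54 (adjusted p = 0.000904) and for Rps15 0.30 (adjusted p = 0.0157). In sets holding both sexes, the female minus male difference of the cytosolic mean was 0.12 in B, 0.59 in C, 0.18 in D, -0.15 in G and 0.15 in H. That of the mitochondrial mean was 0.12, 0.59, 0.31, 0.009 and 0.34. Sets B, C and D hold different strains for the 2 sexes, G and H the same ones. Mpc1 was higher in females in all 5, by 0.40 to 2.02, and Atpif1 by 0.33 to 1.60. Array spread differed little, with a mean SD over probes of 0.90 for females and 0.94 for males. When arrays were scaled to the same spread, 1 of 13 cytosolic genes (Rps3) was called instead of 7, and 15 of 22 mitochondrial genes instead of 16, where 30.6% of all features were called. Atpif1 and Rps15 were among those lost, and Mpc1 still passed at 1.18 (adjusted p = 5.41e-06). What set E shares, and its part in the sex differences, was not tested beyond these values.

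**Figure D3:**
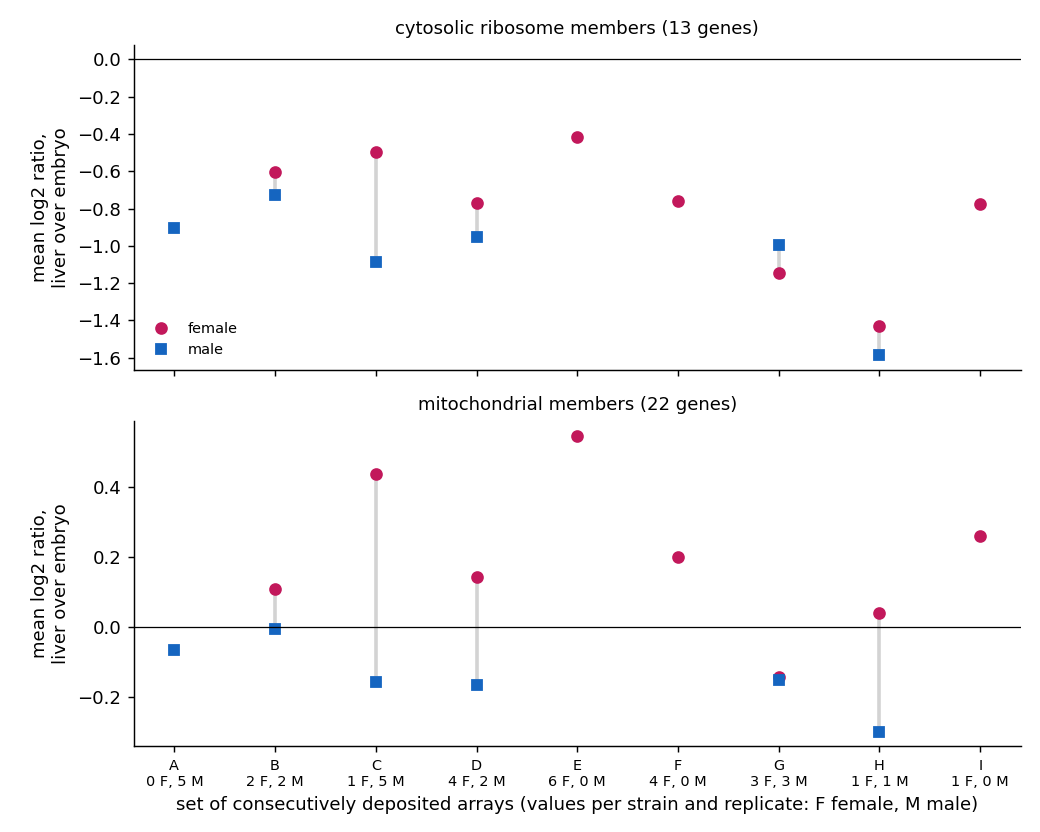
Mean log2 ratio of liver over the embryo mix, over 13 cytosolic ribosomal genes (top) and 22 mitochondrial genes (bottom), by set of consecutively deposited arrays. Circles are female and squares male means over the values counted under each letter, grey lines join the sexes of a set, and the females of set E are the highest of both panels at -0.42 and 0.54.

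Of the related lists, pyruvate and citric acid cycle genes were higher in females for 5 of 7 without and 3 of 7 with the set as a term, among them the pyruvate dehydrogenase subunit Pdha1 (0.37 and 0.28, adjusted p = 0.00749 with the term). Assembly and import gave 3 of 8 in both fits, of which only Timm8b was shared. The others were Timm10 and Surf1 without the term, and Opa1 and the chaperone Hspa9 (0.45, adjusted p = 0.00392) with it. Ribosome assembly gave 3 of 8 without and 0 of 8 with the term, and translation factors 2 of 8 and 1 of 8, all higher. Other cytosolic ribosomal genes gave 0 of 3 without the term and, with it, 1 lower (Fau, -0.32). Electron carriers gave 1 of 4 and mitochondrial gene expression 1 of 3 in each fit. Regulators gave 1 of 8 without the term (Esrra) and 2 of 8 with it (Ppara and Mtor). Of all features, 16.2% were higher in females without the term and 10.2% with it. Cell division genes, a sign of proliferating cells, were higher for 3 of 8 without and 0 of 8 with the term, and the hepatocyte list for 2 and 0 of 10. Their part in the differences of the members was not tested.

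Strain differences were not detected for any of the 35 genes (moderated F over 13 strains, 26 values, sex as a term), where 1.21% of all features were called. The sexes of a strain served as its replicates, and the set of arrays was not a term. Of these strains, 6 had their female arrays in set E, among them BXD28. Differences between sets therefore enter both the error and the strain means, and strain and set were not separated. At an unadjusted p under 0.05 there were 1 of 13 cytosolic and 4 of 22 mitochondrial genes, where 14.2% of all features passed. Mrpl23 had the largest F, at 5.79 (adjusted p = 0.063). Its strain means ran from -0.73 in BXD18 to 0.11 in BXD28, a 1.79-fold range. The females and males of BXD18 were at -0.49 and -0.97 and those of BXD28 at 0.36 and -0.13. These strains were picked as the extremes of the means of these same values, so their order within each sex adds no support. BXD15 was second in order at 0.10, and BXD28, BXD15 and BXD31 were the only strain means above 0.

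The muscle isoform Cox8b followed (F = 4.17, adjusted p = 0.153), with the lowest value in BXD11 and the highest in BXD19. Rps15 (3.67), Mrps12 (3.62), Cox7a2l (2.83), a factor in the joining of chain complexes, and Atpif1 (2.28) had adjusted p-values between 0.198 and 0.381. The SD of strain means over the members ran from 0.12 (Cox6a2) to 0.34 (Atpif1), with medians of 0.21 for cytosolic and 0.22 for mitochondrial genes, beside 0.15 over all features. With all 17 strains, of which 4 had forward arrays alone, 4 cytosolic and 4 mitochondrial genes were called, where 25.7% of all features were. Of the related lists, 1 of 8 translation factors and 1 of 8 regulators differed between strains, and none of the other 6 lists had a called gene.

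In the direct comparison of the parents, no member was called (6 arrays, dye as a term, arrays of a sex and replicate number as a random block), where 0.881% of all features were. At an unadjusted p under 0.05 there were 4 of 35 genes, where 11.8% of all features passed. The 6 genes named next have the largest moderated t over these same arrays, so arrays of the same sign follow in part from that choice. The share of all features with the same sign on all 6 arrays was not counted. Rps2, a small-subunit protein, was higher in B6 on all 6 arrays, at 0.25, 0.16 and 0.23 in males and 0.48, 0.51 and 0.23 in females (0.31 ± 0.08 SE, adjusted p = 0.198). Ndufa6 was above 0 on all 6 as well, at 0.54, 0.63 and 0.42 in males and lower, at 0.29, 0.07 and 0.15, in females (0.36 ± 0.10, adjusted p = 0.259). With the B6 over D2 effect fitted per sex, the female minus male difference of Ndufa6 was -0.34 ± 0.16 (SE) and did not pass (limma, adjusted p = 0.492).

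Rps3 was below 0 on all 6 arrays (-0.40 to -0.08; -0.19 ± 0.08, adjusted p = 0.407), as was Atp5g1 (-0.28 to -0.07; -0.17 ± 0.07, adjusted p = 0.418). Ndufs4 was above 0 on all 6 (0.06 to 0.25; 0.14 ± 0.07, adjusted p = 0.448). Cox7a2l was at 0.24 on the male forward array and between -0.49 and -0.07 on the other 5 (-0.15 ± 0.08, adjusted p = 0.475). The medians over the members were 0.004 (cytosolic) and 0.05 (mitochondrial). Of the related lists, 1 of 8 assembly and import genes was called, higher in B6.

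Mpc1 and Atpif1 had opposite signs in the 2 sexes of the parents. The limits on direction and on the likeness of the orientations given above hold here too. Mpc1 was higher in B6 in males, at 0.61, 0.50 and 0.62, and lower in B6 in females, at -0.29, -0.57 and -0.48. The female minus male difference was -1.04 ± 0.13 (SE) with an adjusted p of 0.136. Atpif1 was at 0.35, 0.69 and 0.44 in males and -0.19, -0.50 and -0.19 in females, a difference of -0.76 ± 0.25 (adjusted p = 0.389). On the enriched arrays Mpc1 was at 0.28 (male) and 0.09 (female) and Atpif1 at 0.24 and 0.002. No member was called for this difference, where 0.0183% of all features were, and 3 of 35 passed at an unadjusted p under 0.05, where 11% of all features did. The pattern of all male arrays on one side of 0 and all female arrays on the other was seen in 2 of 22 mitochondrial and 0 of 13 cytosolic genes, beside 5.32% of all features.

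**Figure D4:**
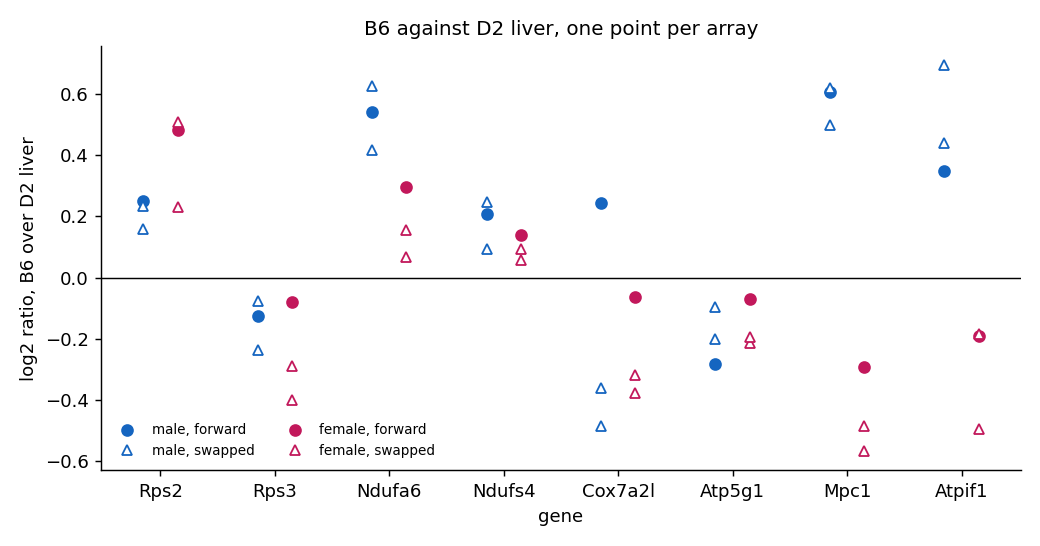
Log2 ratio of B6 over D2 liver on each of 6 arrays for 8 genes, filled circles for forward and open triangles for swapped arrays, males left and females right of each gene. Rps2, Ndufa6 and Ndufs4 lie above 0 on all 6 arrays and Rps3 and Atp5g1 below, while Mpc1 and Atpif1 lie above 0 in males (0.35 to 0.69) and below in females (-0.57 to -0.19).

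The members varied together. Over 34 strain and sex values, the median Pearson correlation between 2 cytosolic ribosomal genes was 0.42 (78 pairs), between 2 chain genes other than the muscle isoforms 0.46 (105 pairs), and between a gene of each 0.43, beside -0.0004 over 3439 named features. These are descriptions: the values share the reference mix, the arrays and the sets. Within males alone the chain median was 0.23 and within females 0.46, while the ribosomal medians were 0.45 and 0.40. The muscle isoforms Cox8b and Cox6a2 correlated at 0.77. Mpc1 and Atpif1 correlated at 0.73 over both sexes, at 0.71 in females and at -0.21 in males.

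Not every gene took part. Atp5a1 had a median correlation of -0.45 with the other chain genes, and Rpl19 one of 0.09 with the other ribosomal genes. Rpl36a followed the ribosomal mean (0.89) and the chain mean (0.93) alike. The 6 features outside the members that were most like the ribosomal mean (r of 0.91 to 0.93) or the chain mean (0.93 to 0.96) had no gene name here. Among named features the most like the ribosomal mean were Gngt2 (0.85), a G protein subunit, Smpdl3a (0.84), Psma2 (0.84), a proteasome subunit, Dynlt1b (0.82), Timm8b (0.82), of mitochondrial import, and Polr1d (0.81). For the chain mean they were Smpdl3a (0.92), Timm8b (0.92), Psma2 (0.89), Gngt2 (0.88), Pdha1 (0.87) and Cetn3 (0.87), a centrin.

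**Figure D5:**
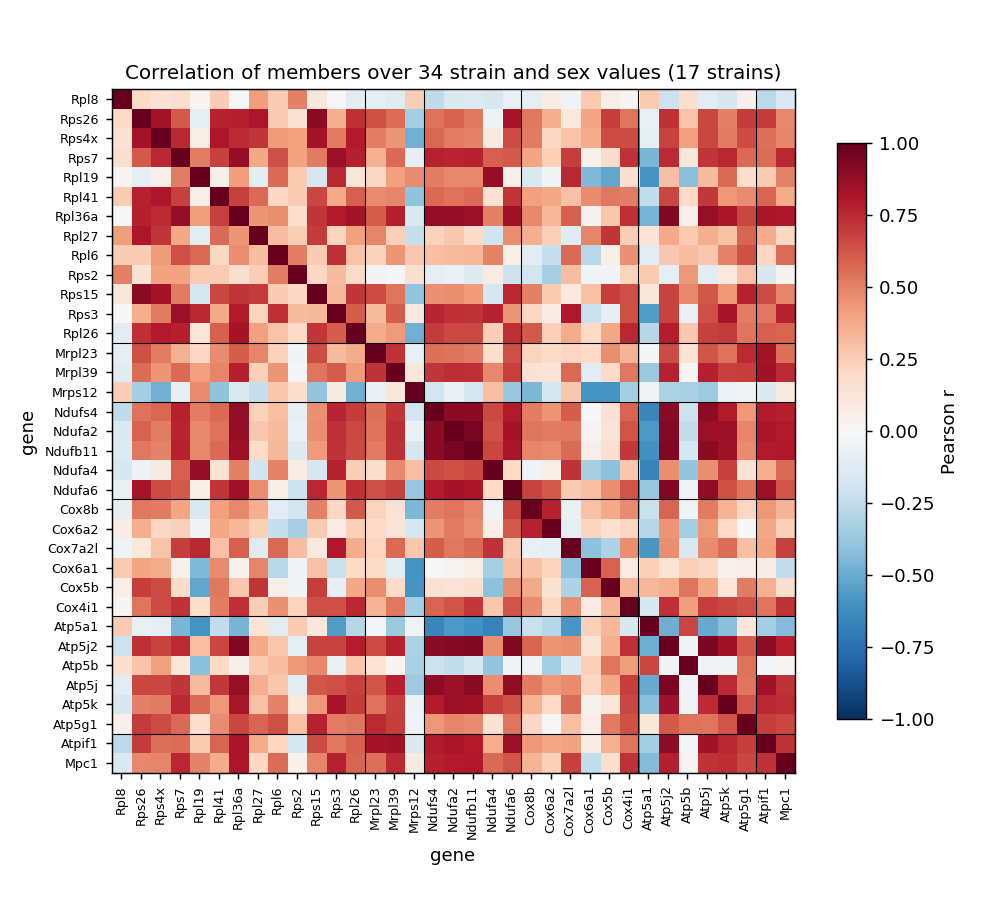
Pearson correlation between the 35 genes over 34 strain and sex values, ordered by complex as in the plot of liver against embryo, with black lines between the classes. Red cells are positive and blue negative; the complex I genes and the small complex V subunits form the darkest red area, and the rows of Atp5a1 and Mrps12 hold many of the blue cells.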

How the data were processed

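The authors deposited 1 log10 ratio per probe and array; the base is unstated and was read from exact bounds at 2 on either side of 0, where 94 values of all probes and 0 of the members lie. Values were multiplied by 3.322 to log2, and arrays with liver (or B6) in channel 1 were multiplied by -1. Both channels are labelled cy3. Forward and swapped arrays correlated at -0.895 to -0.556 as deposited (32 pairs), but those of the parents at 0.0187 (male) and -0.133 (female). The labels name no scanner, software or normalization. 1 BXD11 female array with a title and channel order that conflict was left out. Probes of a symbol were averaged, giving 21915 features. Orientations, then sexes, were averaged per strain. Fits used limma 3.58.1 (lmFit, eBayes) in R 4.3.3 with p-values adjusted by Benjamini-Hochberg over all features (limit 0.05). The fits of liver against embryo, sex, strain and parents were run on simulated data with independent noise. No minimum recovery was required for the parents. The fit with the set as a term and that of the parents' sex difference were not simulated. Each p-value sets an effect against the spread between the values of its own fit. For liver against embryo this is the spread of liver strain means, and the single embryo mix adds no spread of its own. Depth is not defined for arrays, whose number limits precision.

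Members and gene lists were chosen with earlier results of these data known. Named were: every called member and each class's extremes for liver against embryo, up to 10 called members per side with the largest sex difference, and, with under 6 calls, the 6 largest F (strains) or moderated t (parents). Likeness named the 6 closest features, to which the closest with a gene name were added after their values were seen, as were Mpc1 and Atpif1 in the parents. Alternatives covered centring, scaling, quantile normalization, probes, trend, orientation, sex, strains, replicates, sets and dye.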

Additional observations from a re-analysis of the deposited data

Results flagged for a closer look

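Mpc1 and Atpif1 stood out because all 3 male arrays of B6 over D2 lay above 0 and all 3 female arrays below, with female minus male differences of -1.04 and -0.76. Neither difference passed adjustment (limma, adjusted p = 0.136 and 0.389). Across alternatives the adjusted p for Mpc1 ran from 0.0219 (replicate number 1 alone) to 0.849 (enriched arrays added).

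In the 4 strains with forward arrays only, 1 strain lay far from the other 3 in its female minus male difference for Rps15 (0.711, in BXD14) and for Rpl6 (0.929, in BXD27). About 1 in 20 such groups is marked by chance.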

How the results depend on the processing

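For liver against embryo, the called counts of 4 cytosolic and 6 mitochondrial genes became 12 and 20 with no size threshold (84.0% of all features called), 7 cytosolic genes in males only (15.9% of all features called) and 11 mitochondrial genes in females only (13.2%). Atp5a1, uncalled, turned to -0.0040 with arrays centred and -0.092 in females only. Atp5g1 fell under the size threshold with arrays centred (0.98), 17 strains, swapped arrays only or males only, Ndufa6 with 17 strains (0.90) or males only (0.58), and Rps7 in females only (-0.94).

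For females against males, 7 cytosolic calls became 1 with arrays scaled (30.6% of all features called), 3 with quantile normalization (30.6%), 1 with the set as a term (21.4%), 1 without the strains of set E (22.8%) and 0 in the 4 forward-only strains. The 16 mitochondrial calls became 5, 6 and 0 with the set as a term, without set E and in the forward-only strains. In the 4 forward-only strains the sign turned for Rps3 (-0.038), Rps7 (-0.097), Rpl19 (-0.11), Rps26 (-0.024), Ndufa6 (-0.18), Ndufa2 (-0.12), Atp5j2 (-0.026), Ndufb11 (-0.048), Atp5k (-0.13), Atp5j (-0.086) and Ndufa4 (-0.051). With the set as a term it turned for Rps7 (-0.024), Rpl19 (-0.13), Ndufa2 (-0.036), Atp5k (-0.072) and Ndufa4 (-0.14), and without the strains of set E for Ndufa4 (-0.0010). The forward-only fit has 4 strains and called 0 features in all; the cause of the other changes was not tested. With the replicate number as a block, 7 cytosolic and 16 mitochondrial genes were called, and the block changed no other count of member calls.

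For strain differences, 17 strains gave 4 cytosolic and 4 mitochondrial calls, and leaving out each strain gave 0 to 1 mitochondrial calls (1 without BXD5). For the parents' sex difference, 1 mitochondrial gene, Mpc1, was called with quantile normalization and with replicate number 1 alone. Signal over background was not analysed here, so low-signal probes are not told apart.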
